A study of Arabidopsis thaliana with 8 samples.

Results

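Transcript levels of *yucca* and wild-type (WT) *Arabidopsis* seedlings that had both received a brassinosteroid (BR) are described here, so that the compared seedlings differed in genotype and not in treatment. The arrays were chosen by their labels, 2 of *yucca* seedlings and 2 of WT (Columbia, Col-0) seedlings, all treated with brassinolide (BL, the most active BR), and are 4 of the 8 arrays. Light-grown seedlings, 10 d old by the labels and slightly younger by the methods, were immersed for 2.5 h in 1 μM BL in liquid growth medium. Mock seedlings of both genotypes (2 arrays each), immersed in the medium alone, entered the same fit and show which differences were there without BR. *yucca* is a gain-of-function line that overproduces auxin and serves here as a model of long-lasting rather than brief auxin excess. Such lines carry viral enhancers beside *YUCCA*, a flavin monooxygenase gene of auxin synthesis, and its transcript has no named probe set here, so the overexpression itself was not checked. Whole seedlings were extracted, so fewer cells of a type and less RNA per cell cannot be told apart. The question was which genotype differences are found among seedlings that are all responding to BR.

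Auxin and BRs both promote cell elongation in the hypocotyl. Auxin acts through TIR1-type receptors that remove Aux/IAA repressors and so free auxin response factors (ARFs), which switch on *Aux/IAA*, *SAUR* and *GH3* genes within minutes to hours. BR is perceived at the cell surface by the receptor kinase BRI1, and its signal reaches the nucleus through transcription factors of the BZR1 family, which also repress the genes of BR synthesis.

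The 2 genotypes differed in technical values as well. The deposited intensities had medians of 46.2 and 44.7 on the *yucca* BR arrays, against 86.77 and 89.95 on the WT BR arrays (replicates 1 and 2). Levels were therefore set on a common scale by quantile normalization over all 8 arrays, and each difference below is relative to the bulk of transcripts (median log2 difference -0.006, quartiles -0.279 and 0.263). On the values as deposited that median was -0.86, with 204 probe sets called higher and 15352 lower in *yucca*, and small positive differences given below turned negative there. Signals of 3′ over 5′ control probe sets, which rise as RNA is degraded or copied incompletely, were higher in *yucca*. For ubiquitin the log2 difference was 1.35 and 1.34 on the *yucca* BR arrays, against 0.44 and 0.49 on the WT BR arrays, and for actin 1.12 and 0.91, against 0.78 and 0.77. Their part in the differences below was not tested, and genotype and normalization run cannot be told apart. Replicates had a Pearson r of 0.995 (*yucca* BR) and 0.998 (WT BR) across probe sets. The intensities are in arbitrary units, with 5% of probe sets below 8.54, a median of 63.6 and 5% above 1010.

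Under BR, 1879 of the 22746 tested probe sets were higher in *yucca* than in WT (8.26%) and 1946 were lower (8.56%). Both directions together made up 16.8%. Calls required an adjusted p from limma under 0.10 and B above 0, where B is the log of the odds that a transcript differs. The B criterion was the stricter one, since the largest adjusted p among calls was 0.00203. Called differences were at least 2-fold for 792 higher and 779 lower probe sets, and at least 4-fold for 142 and 90. The smallest called log2 difference was 0.47, and the medians were 0.92 for higher and -0.89 for lower calls. The arrays of both genotypes did not overlap for far more probe sets, 37.2% with *yucca* above WT and 38.7% with *yucca* below WT. Without WT BR replicate 1 the calls fell to 1060 higher and 1061 lower, and without WT BR replicate 2 to 1007 and 1085.

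Among transcripts that a probe set assigns to 1 gene, the largest differences under BR were those of transcripts higher in *yucca*. At1g72900, which the study's tables annotate as a virus resistance protein, had intensities of 475 and 324 on the *yucca* BR arrays, against 18.1 and 19.1 on the WT BR arrays, a log2 difference of 4.40 (standard error 0.172, adjusted p = 1.74e-06 from limma), or 3.56 with 16 added to the intensities before log2. At1g56300 read 389 and 253 in *yucca*, against 13.9 and 17.4 in WT. *WRKY40* (At1g80840), a transcription factor of pathogen and wound responses, read 537 and 270 in *yucca*, against 19.8 and 26.3 in WT. The WT readings of these 3 transcripts lay in the lower part of the intensity scale, and the *yucca* readings were well above its middle. *PMZ* (At3g28210, also *SAP12*), a stress-associated zinc finger protein, read 213 and 109 in *yucca*, against 12.6 and 12.1 in WT, which is below the lower quartile of the scale (15.5). *WAK1* (At1g21250), a wall-associated kinase that contacts pectin, read 234 and 167 in *yucca*, against 20.4 and 16.6 in WT. *OCT5* (At1g79410), an organic cation/carnitine transporter, differed 8.52-fold. *ATPMEPCRB* (At4g02330), a pectin methylesterase that modifies cell wall pectin, read 254 and 240 in *yucca*, against 28.4 and 26.8 in WT, with a log2 difference of 3.16 under BR and 1.77 under mock. The other genes of the 15 with the largest differences were At4g01870, At2g21130, At5g22580, At1g66090, At5g35735, At1g54050, At5g03350 and At2g43620, known here by locus alone. Taken among called transcripts whose arrays did not overlap between genotypes, the 15 fitted differences were 8.15-fold to 21.1-fold (log2 3.03 to 4.40). With 16 added they were 2.27 to 3.56 on the log2 scale, so their size depends on low WT readings that could not be set against a measured background here, and all 15 kept their calls. In all 15 *yucca* BR replicate 1 was above replicate 2, whereas among all probe sets called higher this was so for 991 of 1879.

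**Figure D1:**
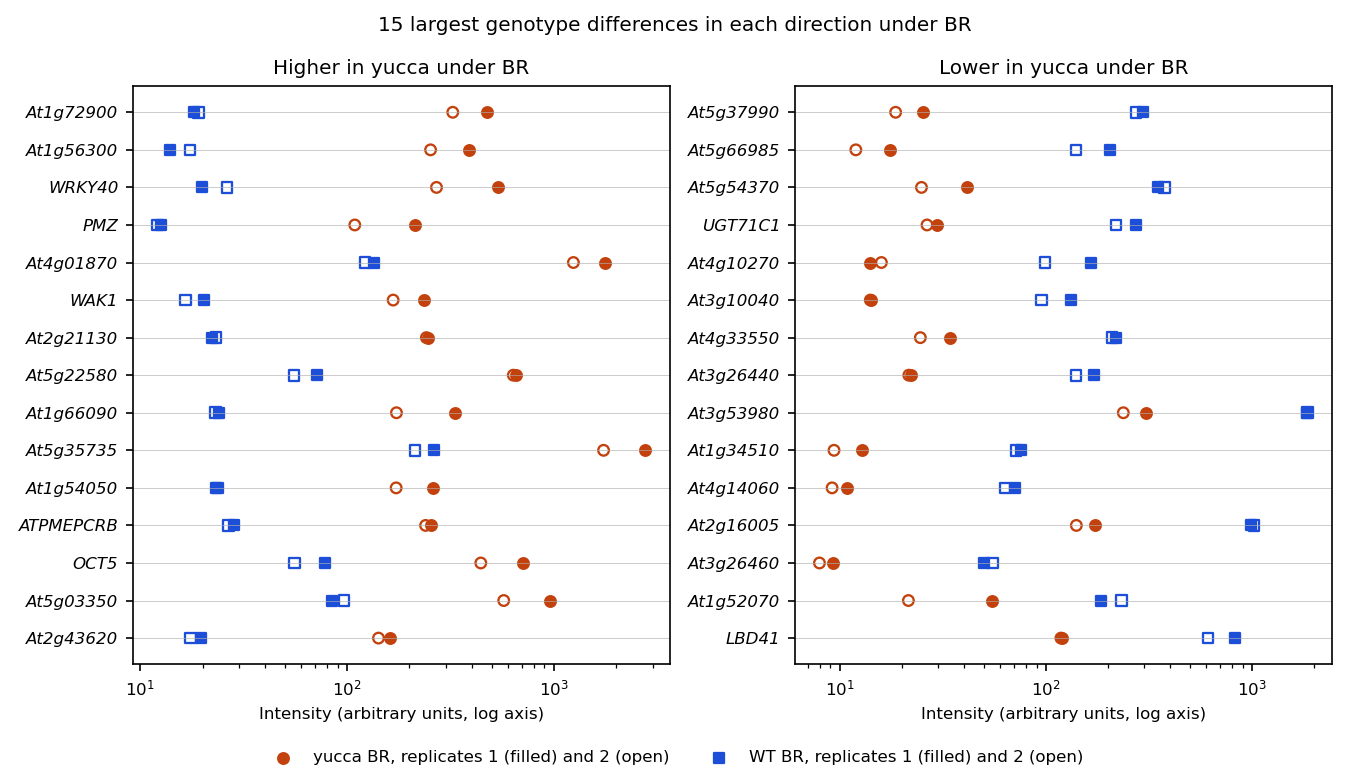
Intensity (arbitrary units, log axis) of the 15 transcripts of 1 assigned gene with the largest difference in each direction on the 2 *yucca* BR arrays (circles) and the 2 WT BR arrays (squares), replicate 1 filled and replicate 2 open. The *yucca* and WT symbols of each transcript are separated because only transcripts without overlap between genotypes were chosen. In the left panel the filled circle lies right of the open one in all 15 rows.

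Transcripts of 1 assigned gene lower in *yucca* under BR were led by At5g37990, with 25.3 and 18.6 on the *yucca* arrays, against 295 and 273 on the WT arrays, a log2 difference of -3.71 (standard error 0.215). At5g66985 read 17.4 and 11.9 in *yucca*, against 205 and 140 in WT, and At5g54370 read 41.4 and 24.9, against 350 and 377. *UGT71C1* (At2g29750), an enzyme that attaches glucose to small molecules, was 8.73-fold lower in *yucca*. At3g10040, listed in RefSeq as *HYPOXIA RESPONSE ATTENUATOR1*, read 14.2 and 14.1 in *yucca*, against 132 and 95.01 in WT. *LBD41* (At3g02550), a LOB-domain protein whose transcript is known to rise when oxygen is short, read 120 and 118, against 828 and 611. At3g53980 read 304 and 237 in *yucca*, against 1854 and 1860 in WT, both WT readings being in the top 5% of the scale. The 15 differed by 5.98-fold to 13.1-fold, and 13 of them, At3g10040 included, are labelled here by locus. In 14 of the 15 *yucca* BR replicate 1 was above replicate 2, and among all probe sets called lower this was so for 1175 of 1946. The lowest *yucca* reading among them was 7.96, at the lower end of the intensity scale. At1g52070 was the one of these that lost its call when 1 array was left out (log2 difference -2.43 without WT BR replicate 2).

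Called members of the *ERF* and *DREB*, *WRKY* and *NAC* lists, families of transcription factors many of which act in stress responses, were higher in *yucca* under BR. Of 7 measured *ERF* and *DREB* genes, 5 were higher (71.4%, against 8.26% of all probe sets) and none was lower (median log2 difference 1.12). Of 10 *WRKY* genes 4 were higher (40%) and none lower (median 0.64). On *yucca* BR replicate 1 the reading was above that of replicate 2 for 6 of the 7 *ERF* and *DREB* genes, 9 of the 10 *WRKY* genes and all 4 abscisic acid and cold genes, and the part of that array in these counts was not tested beyond leaving it out. *ERF6* (At4g17490), an ethylene response factor, read 390 and 182 in *yucca*, against 41.6 and 40.7 in WT. *WRKY33* (At2g38470), a regulator of defence against necrotrophic fungi, read 1319 and 800, against 251 and 237. Among 9 *NAC* genes 3 were higher (33.3%), led by *NAC102* (At5g63790) with 1862 and 1150 in *yucca*, against 212 and 174 in WT. *STZ* (At1g27730), a zinc finger repressor of the salt and cold response, was 5.56-fold higher. It belongs to a list of 10 calcium, touch and rapid stress genes. Of these 2 were higher (20%, against 8.26% of all probe sets), none was lower and 8 were not called (median 0.19). Of 4 transcripts of abscisic acid and cold, 3 were higher (75%), *COR15B* at 2.87, *COR15A* at 1.77 and *COR47* at 0.87 on the log2 scale. These lists are not independent of the arrays, since many members were named only through the study's tables of regulated transcripts, drawn up in part on them (all 7 *ERF* and *DREB* genes, 8 of 9 *NAC* genes, 3 of 10 *WRKY* genes). Calls of *COR15A* and *COR47* were lost without *yucca* BR replicate 1 (1.44 and 0.76) or either WT BR replicate (*COR15A* 2.01 and 1.53, *COR47* 0.86 and 0.88 without replicates 1 and 2), and that of *COR15A* also without either WT mock array. The call of *NAC096* (0.81) was the least stable of the *NAC* genes, lost in 10 alternatives that include each BR and WT mock array left out (0.69 to 0.92). That of the *DREB* gene *CEJ1* (1.54) was lost in 6, namely without either WT BR replicate (1.58 and 1.51), without either WT mock array, on the 4 BR arrays alone and with 16 added to the intensities before log2 (1.41).

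*MYB* genes split by member. Of 9 measured, out of 125 listed, 2 were higher (22.2%, against 8.26% of all probe sets) and 5 lower (55.6%, against 8.56%) in *yucca*, with a median log2 difference of -0.61. *MYB34* (At5g60890), an activator of indole glucosinolate synthesis, read 25.2 and 27.7 in *yucca*, against 80.8 and 83.2 in WT. *MYB40*, *MYB66* and *MYB48* differed by -1.48, -1.09 and -1.02 on the log2 scale, of which *MYB66* (also *WEREWOLF*) sets the fate of non-hair cells of the root epidermis. *MYB30*, a regulator of the hypersensitive response, and *MYB13* were higher by 0.87 and 1.26. All 9 were named only through the study's tables of regulated transcripts, so the shares do not describe the family.

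Primary auxin-response genes were not uniformly higher in the auxin overproducer under BR. Of 20 measured *Aux/IAA* genes, 3 were higher (15%), 2 lower (10%) and 15 did not pass the test (median log2 difference 0.24), shares not far from those of all probe sets (8.26% and 8.56%). Of these 20 (32 listed), 13 were named only through the study's tables of regulated transcripts, so the shares do not describe the family. *IAA5* (At1g15580) read 66.7 and 118 in *yucca*, against 33.6 and 24.7 in WT (log2 difference 1.63, standard error 0.249, adjusted p = 0.000876 from limma), and *IAA1* (At4g14560) read 198 and 327, against 102 and 83.2. *IAA7* (At3g23050) differed least of the 3, with 1785 and 1794 in *yucca*, against 1004 and 1021 in WT. *IAA11* and *IAA20* differed by -1.10 and -0.74. Replicates of *IAA5* and *IAA1* differed widely in *yucca*. On the 4 BR arrays alone 1 of the 20 was higher and 1 lower, with *IAA5*, *IAA1* and *IAA20* no longer called. With 16 added before log2 1 was higher and 2 lower, again without those 3. The call of *IAA5* was lost without WT BR replicate 2 (1.40) or a WT mock array (1.63), and that of *IAA1* also without *yucca* BR replicate 2 (1.1) or WT BR replicate 1 (1.61). The *IAA20* call was lost without either *yucca* BR array, WT BR replicate 2 or either WT mock array (-0.58 to -0.79). Of the repressors that did not pass, *IAA3*, *IAA9*, *IAA14* and *IAA18* had log2 differences of -0.04, 0.04, 0.02 and -0.04. *IAA19* (At3g15540), which the study cites as induced by both hormones, read 621 and 676 in *yucca*, against 489 and 347 in WT. Its log2 difference was 0.65 (adjusted p = 0.0125 from limma), and it failed the B criterion alone.

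Among 7 *GH3* genes, whose enzymes join auxin or jasmonate to amino acids, 3 were higher (42.9%, against 8.26% of all probe sets) and 1 lower (14.3%, against 8.56%). *GH3.3* (At2g23170) read 386 and 463 in *yucca*, against 123 and 81.7 in WT, a 4.21-fold difference with no overlap. *DFL1* (*GH3.6*) and *WES1* (*GH3.5*), which conjugate auxin, were higher by 0.97 and 0.67. *GH3.4* read 80.04 and 59.8 in *yucca*, against 182 and 171 in WT. *WES1* was the least secure of these calls, since it was lost with every array left out but *yucca* BR replicate 2, and with array medians set equal, cyclic loess, the 4 BR arrays alone or 16 added, each of which left 2 *GH3* genes higher (0.54 to 0.80 over all settings on a common scale). The *DFL1* call was lost without *yucca* BR replicate 2 (0.83) or WT BR replicate 2 (0.84).

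Of 29 *SAUR* genes, early auxin-induced transcripts of small proteins that promote cell expansion, 5 were higher (17.2%, against 8.26% of all probe sets) and 1 lower (3.45%, against 8.56%), with a median log2 difference of 0.22. Cyclic loess gave 7 higher. *SAUR9* (At4g36110) read 556 and 618 in *yucca*, against 155 and 127 in WT, the largest difference of the family at 2.06 (standard error 0.14, adjusted p = 1.39e-05 from limma). *SAUR12* read 169 and 199, against 59.0 and 61.8, and *SAUR1* read 1016 and 1011, against 380 and 358. *SAUR28* was 2.62-fold higher. *SAUR15* (At4g38850) read 310 and 347 in *yucca*, against 207 and 158 in WT, and did not pass the B criterion (log2 difference 0.86, adjusted p = 0.00212 from limma). *SAUR79* was lower, with a difference of -0.98. Of the 29, 26 were named only through the study's tables. The *SAUR79* call was lost without *yucca* BR replicate 2 (-0.80), WT BR replicate 1 (-1.01) or WT BR replicate 2 (-0.95), and *SAUR15* was called without WT BR replicate 1 (1.05) or either *yucca* mock array.

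Of 5 measured auxin carriers 1 was lower (20%, against 8.56% of all probe sets). Of 2 measured response factors (24 listed) 1 was higher (50%, against 8.26%). All 5 carriers (13 listed) and both response factors were named only through the study's tables of regulated transcripts, so these shares do not describe the families. All 5 carriers were lower with BR in WT, against 0.901% of all probe sets. The carrier list is thus not independent of the WT BR arrays. *LAX3* (At1g77690), an auxin influx carrier, read 137 and 105 in *yucca*, against 236 and 219 in WT, and was the one called member of 5 transport genes (log2 difference -0.93). *PIN3*, *PIN7* and *ABCB1*, efflux carriers, differed by 0.11, 0.24 and 0.01, and *PIN4* by -0.30 without being called. *ARF8* (At5g37020) read 91.7 and 94.0 in *yucca*, against 53.0 and 59.4 in WT, and *ARF16* read 36.6 and 35.8, against 34.4 and 30.6. The *LAX3* call was lost without *yucca* BR replicate 2 (-0.74), WT BR replicate 1 (-0.87) or WT BR replicate 2 (-0.98). That of *ARF8* was lost without *yucca* BR replicate 1 (0.75), *yucca* BR replicate 2 (0.71) or WT BR replicate 1 (0.64).

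**Figure D2:**
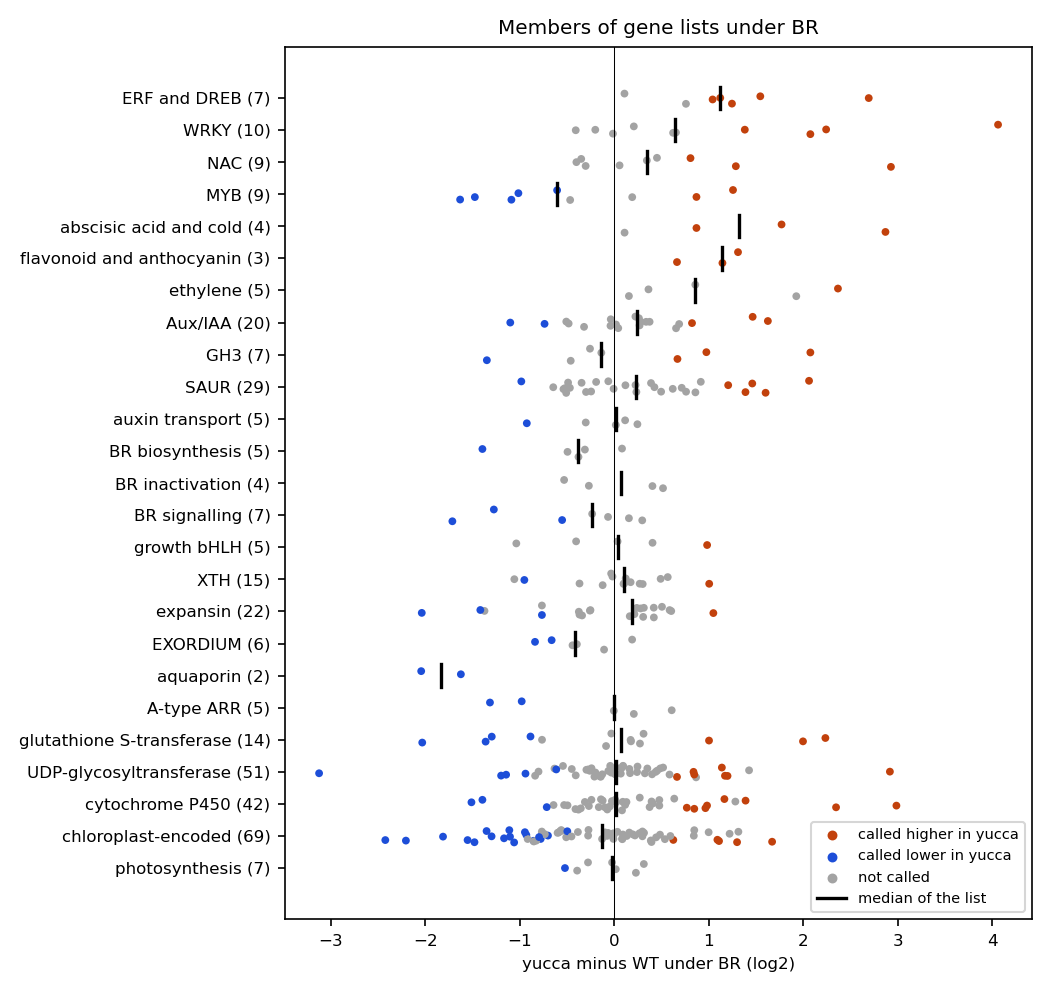
Log2 difference of *yucca* minus WT under BR for the members of 25 gene lists (number measured in brackets), coloured by call, with the list median as a black bar. Medians of the *ERF* and *DREB* list (1.12) and the 2 measured aquaporins (-1.84) lie far from 0. Those of *Aux/IAA* (0.24) and *SAUR* (0.22) lie close to it. All *ERF*, *DREB* and aquaporin genes measured were named only through the study's tables of regulated transcripts.

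Of 7 measured BR signalling genes 3 were lower in *yucca* with BR supplied to both genotypes (42.9%, against 8.56% of all probe sets). Of 5 synthesis genes 1 was lower (20%), and none of either list was higher. *BEH1* (At3g50750) and *BEH2* (At4g36780), transcription factors of the BZR1 family, had the clearest differences. *BEH1* read 57.6 and 55.8 in *yucca*, against 194 and 179 in WT (a log2 difference of -1.72 with a limma adjusted p = 2.97e-05). *BEH2* read 25.6 and 19.6 in *yucca*, against 52.7 and 56.0 in WT. The probe set assigned to *BZR1* (At1g75080) read 1648 and 1701, against 1344 and 1385, without being called. *BRI1* (At4g39400) read 318 and 313 in *yucca*, against 457 and 469 in WT, a 1.47-fold difference, and its homologues *BRL1*, *BRL2* and *BRL3* did not pass the test. *ROT3* (At4g36380), a cytochrome P450 of BR synthesis, read 28.4 and 30.2, against 76.6 and 77.5, and was the one called member of 5 synthesis genes. *DWF4* (At3g50660), the rate-limiting step of the pathway, read 17.6 and 17.2, against 23.7 and 21.6, not far above the lower quartile of the scale (15.5). None of 4 inactivation genes passed the test (median 0.07). Among 5 growth-promoting or antagonizing bHLH genes, log2 differences ran from -1.04 to 0.98 (median 0.03), and 1 was called (20% higher, against 8.26%). This was *BEE1* (At1g18400), with 422 and 503 in *yucca*, against 257 and 212 in WT, a 1.98-fold difference. On the 4 BR arrays alone 1 of the 5 was higher and 1 lower. Beside these genotype differences stand the changes of BR against mock, which share the BR arrays. Of all probe sets 1.85% were higher and 1.79% lower with BR in *yucca*, and 1.31% and 0.901% in WT. *BEH2* changed by -2.91 in *yucca* and -2.66 in WT, *ROT3* by -1.19 and -0.87, and *BRI1* by -1.20 and -1.05, whereas *BEE1* changed by 0.73 and 1.24. All 5 synthesis genes, 6 of 7 signalling genes and all 5 bHLH genes were named only through the study's tables. The *BRI1* call was lost on the 4 BR arrays alone (-0.56) and when any 1 of them was left out (-0.53 to -0.57, largest adjusted p = 0.0127 from limma), and that of *BEE1* without WT BR replicate 2 (0.84).

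**Figure D3:**
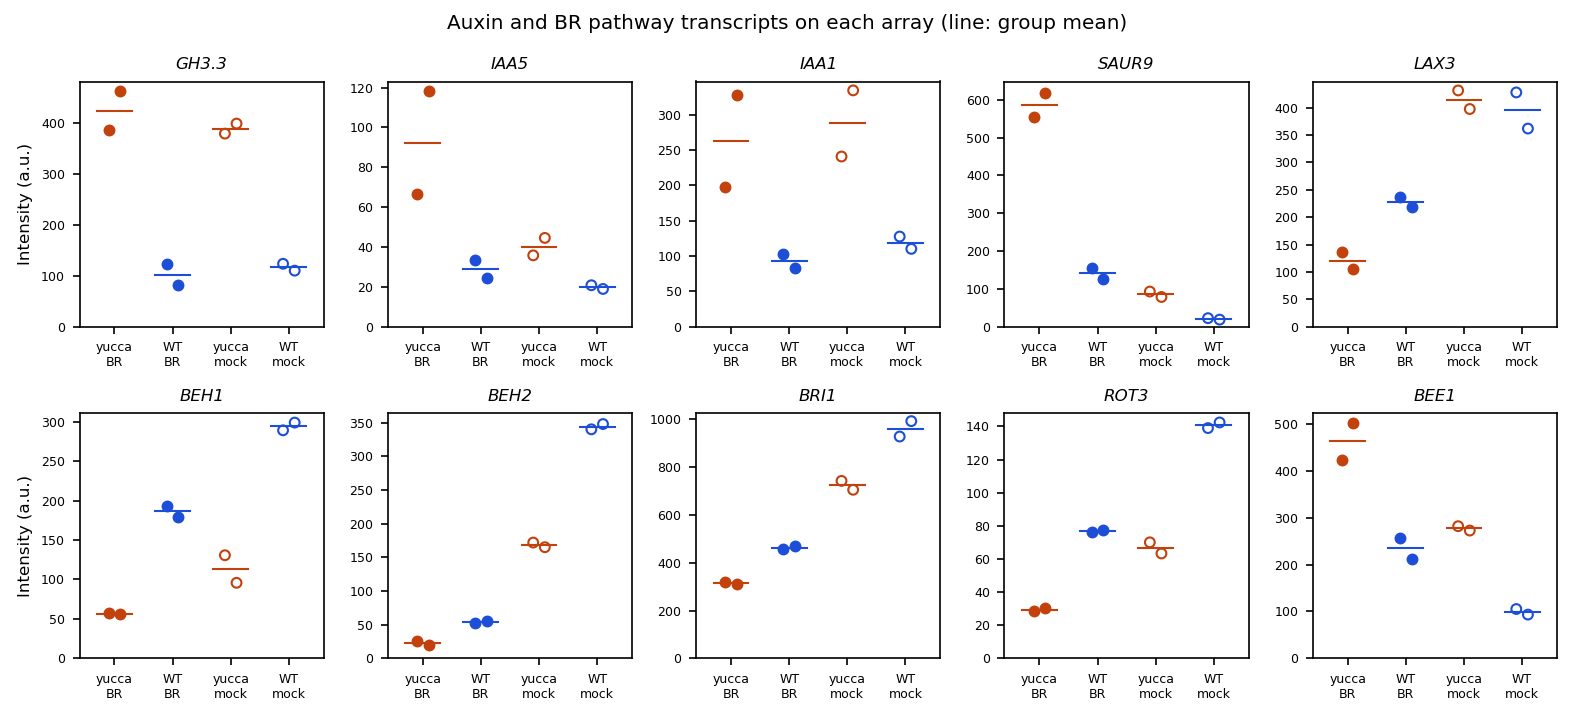
Intensity (arbitrary units, linear axis from 0) of 10 auxin and BR pathway transcripts on each array, in the order *yucca* BR, WT BR, *yucca* mock and WT mock, with a line at the mean of the 2 replicates. *GH3.3* is high in both *yucca* groups, *BEH1* and *ROT3* are lowest in *yucca* BR, and *LAX3* is called lower in *yucca* under BR (137 and 105 against 236 and 219 in WT) and not called under mock.

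Called cell wall and growth genes went in both directions under BR, beside 8.26% higher and 8.56% lower among all probe sets. The shares of the *XTH* genes were near these. Of 15 *XTH* genes, which cut and rejoin xyloglucan, 1 was higher and 1 lower (6.67% each, median log2 difference 0.10). *XTH24* (At4g30270) read 1803 and 1495 in *yucca*, against 794 and 844 in WT, and *XTH21* read 13.1 and 12.4, against 24.3 and 25.1. Of 22 expansins, which loosen the wall, 1 was higher (4.55%, *EXLB1*, 1.05) and 3 were lower (13.6%). *EXPA16* (At3g55500) read 19.5 and 19.7 in *yucca*, against 78.1 and 83.1 in WT, a 4.11-fold difference, and *EXPB1* and *EXPA9* differed by -1.42 and -0.77. Of 6 *EXORDIUM* genes, which promote growth, *EXL4* and *EXL3* were lower (33.3%), with log2 differences of -0.84 and -0.66. Of 11 arabinogalactan protein genes, *AGP7* and *FLA18* were higher (18.2%), by 0.82 and 0.76. *AGP17* was lower (9.09%), with 205 and 205 in *yucca*, against 409 and 361 in WT. All 11 (50 listed) and 5 of the 6 *EXORDIUM* genes were named only through the study's tables of regulated transcripts, so these shares do not describe the families. Of the 11, 10 were higher with BR in WT, against 1.31% of all probe sets. Both measured aquaporins (22 listed), which let water through membranes, were lower. Both were named only through the study's tables of regulated transcripts, so they do not describe the family. *PIP2;4* (At5g60660) read 204 and 180 in *yucca*, against 785 and 795 in WT, and *TIP2;3* (At5g47450), a tonoplast channel of roots, read 193 and 121, against 431 and 517. Calls lost without 1 array were those of *XTH24* (0.87 without *yucca* BR replicate 1, 0.96 without WT BR replicate 1), *EXL4* (-0.82 and -0.86 without WT BR replicates 1 and 2), *EXL3* (-0.61, -0.65 and -0.68 without *yucca* BR replicate 2 and WT BR replicates 1 and 2), *AGP7* (0.77, 0.80 and 0.85 without the same 3) and *TIP2;3* (-1.49 without WT BR replicate 2).

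Other hormone lists gave single differences. *ARR6* and *ARR3*, A-type response regulators that damp cytokinin signalling, were lower (log2 differences -1.32 and -0.98). They were 40% of 5 measured, against 8.56% of all probe sets. *HAT1* differed by -1.17 among 3 *HD-ZIP II* genes (33.3% lower). *ACS6* (At4g11280), an enzyme of ethylene synthesis, read 536 and 321 in *yucca*, against 85.3 and 75.8 in WT. *GA2OX6*, which inactivates gibberellin, and *GA20OX2*, which makes it, were higher by 1.58 and 1.11, and the gibberellin receptor gene *GID1B* differed by -0.69. All 3 measured flavonoid genes (11 listed) were higher, against 8.26% of all probe sets. *TT5* (chalcone isomerase) differed by 1.31, *DFR* by 1.14 and *UGT78D2* by 0.66. *DFR* read 28.8 and 34.4 in *yucca*, against 15.6 and 13.0 in WT, near the lower quartile of the scale (15.5). With 16 added before log2 its call was lost (0.65), which left 2 flavonoid genes higher. Under mock 1 of the 3 was called higher. The 7 aliphatic glucosinolate genes had a median of 1.14, but *IPMI2* alone was called (1.14). The median of that list was 0.35 under mock, and none of the 7 was called in the test of whether the genotype difference differed between treatments. Of the 7, 6 were named only through the study's tables of regulated transcripts, and 4 were lower with BR in WT. The list is thus not independent of the WT BR arrays on which its median rests. Calls lost without 1 array were those of *HAT1* (-1.16 and -1.17 without WT BR replicates 1 and 2), *GID1B* (-0.64 without *yucca* BR replicate 2, -0.61 without WT BR replicate 1), *DFR* (1.02 without *yucca* BR replicate 2, 1.01 without WT BR replicate 2) and *UGT78D2* (0.63 to 0.70 without any 1 BR array, and without either WT mock array).

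Large enzyme families held called members in both directions. Of 14 glutathione S-transferases 3 were higher (21.4%) and 4 lower (28.6%), against 8.26% and 8.56% of all probe sets. *GSTU20* read 1306 and 1272 in *yucca*, against 344 and 303 in WT, and *GSTU26* read 31.1 and 18.4, against 88.5 and 108. Of 51 UDP-glycosyltransferases 7 were higher (13.7%) and 5 lower (9.8%), near the shares of all probe sets. Cyclic loess and the 4 BR arrays alone gave 5 and 5, and 16 added before log2 gave 3 and 3. The higher ones were led by *UGT73B5* (At2g15480) with 336 and 198 in *yucca*, against 33.2 and 35.3 in WT, and the lower ones by *UGT71C1*. Of 42 cytochrome P450s 8 were higher (19%), led by *CYP81D8* (At4g37370) with 189 and 128, against 20.1 and 19.2, and 3 were lower (7.14%). The medians of these 3 families lay between 0.01 and 0.07 on the log2 scale. *UGT73B5*, *CYP81D8* and *GSTU11* differed less under BR (log2 differences 2.92, 2.99 and 2.23) than under mock (4.29, 4.10 and 3.73), but none of these 3 was called in the test of that difference. The *GSTU11* call was lost without WT BR replicate 2 (2.16). Among the UDP-glycosyltransferases *UGT84A3* (1.14) lost its call in 9 alternatives, *UGT87A2* (1.17) in 7 and *UGT85A2* (-1.20) in 4, in each case without either WT BR replicate (1.05 and 1.22, 1.05 and 1.29, -1.15 and -1.25).

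Transcripts of the chloroplast genome differed downward more often than upward. Of 69 measured, 19 were lower in *yucca* under BR and 5 higher (27.5% and 7.25%, against 8.56% and 8.26% of all probe sets, median log2 difference -0.13). *psaA*, a core protein of photosystem I, read 436 and 756 in *yucca*, against 3169 and 2999 in WT, and *atpF*, a subunit of the ATP synthase, read 400 and 438, against 2028 and 1839. *rps19* and *rps4*, ribosomal proteins, differed by -1.81 and -1.55. *ndhF* and *ndhG*, subunits of the NADH dehydrogenase-like complex, were higher by 1.67 and 1.30. Under mock 24 were lower and 3 higher. Of 7 nuclear photosynthesis genes 1 was lower (*PSBY*, -0.52) and the median was -0.02. The 3 Rubisco and carbon fixation genes were not called (median -0.11). The higher 3′ over 5′ signals of *yucca* arrays given above move with these differences, and their part was not tested. The *PSBY* call was lost when any 1 of the BR or WT mock arrays was left out (-0.46 to -0.58). Setting array medians equal without quantile normalization gave 0 lower nuclear photosynthesis genes and 2 higher.

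Root markers were not uniform. The 3 root hair genes *PRP3*, *EXPA18* and *EXPA7* had log2 differences of -1.73, -1.38 and -0.77, without being called. Their *yucca* arrays lay below the WT arrays without overlap, as did those of 38.7% of all probe sets. *PRP3* read 287 and 120 in *yucca*, against 682 and 557 in WT. *PYK10*, a root-abundant β-glucosidase, read 4973 and 4855, against 4428 and 4139, without being called, and *TIP2;3* is the other root marker, lower as given above. Root and green tissue markers were thus both measured in both genotypes, as whole seedlings would have. The part of root hair content in the differences above was not tested.

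Most genotype differences under BR were found without BR as well. Among mock arrays 1948 probe sets were higher in *yucca* (8.56%) and 2000 lower (8.79%). These arrays are not those of the BR comparison, but both comparisons share the normalization and 1 estimate of spread per probe set. The genotypes' separate normalization runs and 3′ over 5′ signals recur under mock (ubiquitin 1.28 and 1.19 in *yucca*, against 0.44 and 0.53 in WT, log2). The part of these in the shared calls was not tested. Of the probe sets higher under BR, 1381 were higher under mock too, 73.5% of the calls under BR and 70.9% of those under mock. Of the lower ones 1489 were shared, 76.5% of the calls under BR and 74.4% of those under mock. Among calls of at least 2-fold under BR the shared part was 88.8% (703 of 792) for higher and 95.1% (741 of 779) for lower ones. All 30 of the largest differences of assigned genes described above were also called under mock. Across 22746 probe sets, which share arrays and are not independent, the 2 genotype differences had a Pearson r of 0.925. The shared part of all calls ranged between 56.3% and 87.3% (higher) and between 58.3% and 87.0% (lower) when 1 array was left out.

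**Figure D4:**
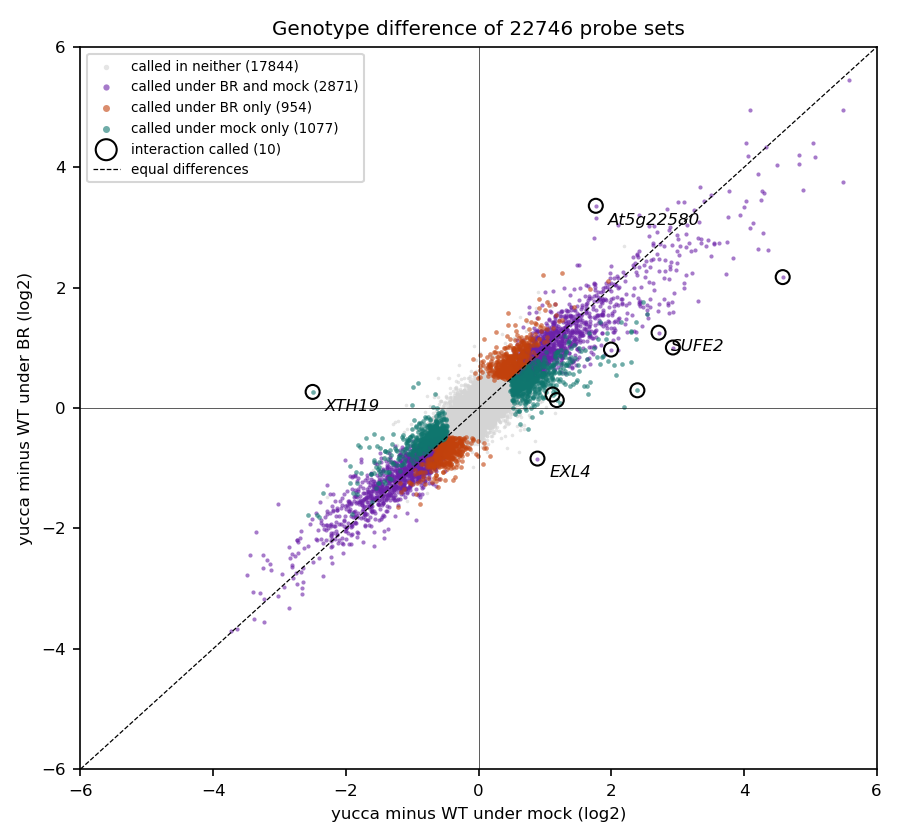
Log2 difference of *yucca* minus WT under BR (vertical axis) against the same difference under mock (horizontal axis) for 22746 probe sets, coloured by call, with the 10 interaction calls circled and a dashed line of equal differences. Most points lie near the line (Pearson r = 0.925), and *XTH19* and *EXL4* lie in the quadrants of opposite sign.

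Genotype differences called under BR alone were not shown to depend on BR. Of 498 higher calls that were not called under mock, 495 had the same sign there, and of 456 such lower calls 451 did. The mock difference was below 50% of the BR difference for 98 and 82 of them. None of the 954 was called in the interaction, the test of whether the genotype difference differed between BR and mock. *WRKY53* (At4g23810), a regulator of leaf senescence, read 149 and 99.6 in *yucca* BR, against 25.6 and 25.9 in WT BR, with a log2 difference of 2.24 under BR and 1.25 under mock. *RGF6*, a peptide gene, differed by 0.92 under BR and 0.41 under mock, and *LAX3* by -0.93 and 0.07. For *LAX3* the difference between the 2 was -1.0 (standard error 0.198, adjusted p = 0.185 from limma). Of the 153 named genes, 15 were higher and 9 lower under BR with no call under mock, among them *IAA1*, *IAA5*, *SAUR28*, *BRI1* and *HAT1*.

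Of 22746 probe sets, 10 passed the interaction test (0.044%), 2 with a more positive and 8 with a more negative difference under BR than under mock, and 881 and 1020 had an unadjusted p under 0.05. *XTH19* (At4g30290), a xyloglucan-modifying enzyme, had the largest change. It read 423 and 458 in *yucca* BR, against 375 and 357 in WT BR, and 17.3 and 16.2 in *yucca* mock, against 105 and 85.7 in WT mock. The genotype difference was thus 0.27 under BR and -2.50 under mock on the log2 scale (interaction 2.77, standard error 0.159, adjusted p = 0.000723 from limma). With BR the level rose by 4.72 on the log2 scale in *yucca* and by 1.95 in WT, and both genotypes ended within 1.204-fold of each other. *EXL4* (At5g09440) was the one probe set called in opposite directions, with 239 and 191 in *yucca* BR, against 388 and 378 in WT BR, and 1098 and 988 in *yucca* mock, against 570 and 555 in WT mock. Its difference was -0.84 under BR and 0.89 under mock (interaction -1.73, adjusted p = 0.0204 from limma). At5g22580 was the other gene with a more positive difference under BR, 658 and 636 in *yucca* BR, against 71.8 and 55.3 in WT BR, and 1130 and 1128 in *yucca* mock, against 360 and 306 in WT mock. *SUFE2* (At1g67810), an activator of cysteine desulfurase, and At1g33110 were higher in *yucca* under both treatments and less so under BR, by 1.25 against 2.71 and by 0.97 against 2.0 on the log2 scale. The other 5 probe sets have no gene named here and had smaller differences under BR (0.13 to 2.18) than under mock (1.12 to 4.58).

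**Figure D5:**
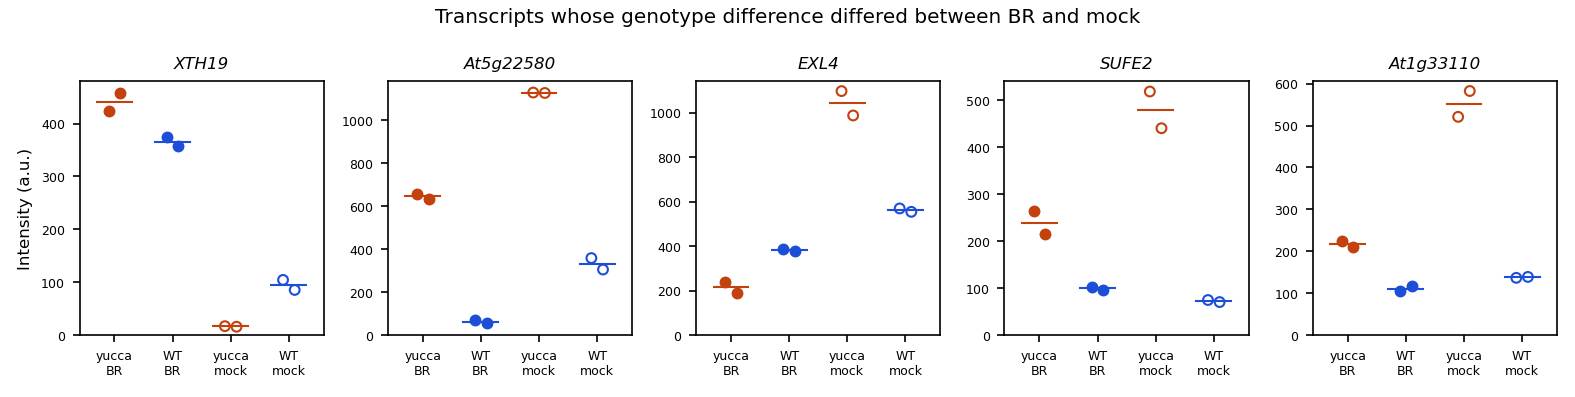
Intensity (arbitrary units, linear axis from 0) of the 5 named transcripts called in the interaction, on each array in the order *yucca* BR, WT BR, *yucca* mock and WT mock, with a line at the mean of 2 replicates. *XTH19* is close between genotypes under BR and apart under mock, and *EXL4* is lower in *yucca* under BR and higher in *yucca* under mock.

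The interaction count rested on single arrays. It was 186 without *yucca* BR replicate 1, 36 and 26 without *yucca* mock replicate 1 and 2, and 10 without *yucca* BR replicate 2. It was 2 and 1 without WT BR replicates 1 and 2, and 1 without either WT mock array. *XTH19* was called in all of these settings, with a difference between treatments of the same sign. *EXL4* lost its call without either WT BR array (-1.71 and -1.75) or either WT mock array (-1.75 and -1.71).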

How the data were processed

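Total RNA of whole seedlings was hybridized to Affymetrix ATH1 arrays, 2 biological replicates per group. The authors deposited rma intensities, background-corrected, quantile-normalized and summarized per probe set, put back on a linear scale. Array medians of one level within each genotype and of another between them show that the genotypes were normalized apart. Scanner files were not used here. Of 22810 probe sets, 64 controls were left out, 13484 have 1 locus in the platform annotation, 485 were named through the study's tables alone, 503 stand for several genes and 8274 have no gene named here.

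Intensities were taken as log2, quantile-normalized over all 8 arrays and fitted with limma 3.58.1 (R 4.3.3), 1 mean per group, 4 residual degrees of freedom, empirical Bayes with an assumed changed proportion of 0.01. Calls needed a Benjamini-Hochberg adjusted p under 0.10 and B above 0. P-values measure the spread between 2 arrays per group, whose number limits the precision. The authors' fold changes in the study's tables were not used. Lists count 1 probe set per locus, that with the highest mean. Named genes are those the study's text names, the 15 largest differences each way, up to 4 called members per list and direction, and interaction calls. The 15 each way were taken among called probe sets of 1 named gene whose arrays did not overlap between genotypes. *YUCCA* has no named probe set here and was not analysed here. The seed storage, secondary wall and auxin receptor lists had no named member. The members and lists were chosen with earlier results of these data known. Alternatives were other normalizations, the 4 BR arrays alone, a replicate block, other thresholds, a variance trend, a level filter, an added constant and each array left out.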

Additional observations from a re-analysis of the deposited data

Results flagged for a closer look

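For 5 transcripts the genotype difference differed between BR and mock by the interaction test. The differences, BR minus mock on the log2 scale, were 2.77 for *XTH19*, 1.59 for At5g22580, -1.73 for *EXL4*, -1.46 for *SUFE2* and -1.02 for At1g33110. Adjusted p-values from limma were 0.000723, 0.0526, 0.0204, 0.0566 and 0.0992 in that order. Under the 16 other settings on a common scale, the call was lost in 0 settings for *XTH19*, 4 for *EXL4*, 5 for At5g22580, 6 for *SUFE2* and 8 for At1g33110.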

How the results depend on the processing

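On the values as deposited, 204 probe sets were higher and 15352 lower in *yucca* under BR (265 and 15356 under mock, 6 in the interaction), and 82.4% and 91.7% of the BR calls were shared with mock. There the log2 difference under BR turned negative for *PIN7* (-0.72), *PIN3* (-0.85), *BRL2* (-0.83), *FLA18* (-0.15), *IAA7* (-0.10), *MYB30* (-0.10), *PRL* (-0.08), *RGF6* (-0.01), *PHYE* (-0.86), *WES1* (-0.29), *ARF16* (-0.70), *XTH19* (-0.69), *BNQ2* (-0.02), *UGT78D2* (-0.31), *ARF8* (-0.25), *TCH2* (-0.13), *AOS* (-0.03), *NAC096* (-0.06) and *AGP7* (-0.09). No named gene changed sign with a call under the other alternatives. With array medians set equal, 2294 were higher and 1625 lower under BR (76.3% of higher calls shared), and with cyclic loess 2044 and 1837, so the split between higher and lower calls depends on the scaling. Without the B criterion 5922 were higher and 6194 lower (mock 5885 and 6289, shared 78.2% and 80.5%). Above the median level 1083 and 1114 were called, with fewer probe sets tested (mock 1174 and 1195, interaction 33, 76.0% of higher calls shared). The interaction count was 5 at an adjusted p under 0.05, 71 with a variance trend and 26 with 16 added before log2; the cause was not tested. Same-numbered arrays did not deviate together between genotypes (r of replicate deviations -0.068 under BR and -0.051 under mock) and did so between BR and mock (0.37 in *yucca*, 0.20 in WT), the pairs the interaction rests on; the labels name nothing they share. With the replicate block 1890 were higher and 1929 lower, with 39 interaction calls. Leaving out 1 array gave 1007 to 2135 higher and 1061 to 2194 lower calls under BR, 1137 to 1880 and 1055 to 1901 under mock, 1 to 186 in the interaction, and 56.3% to 87.3% and 58.3% to 87.0% shared; the lone array of a group was then assumed to vary like the other groups. Without *yucca* BR replicate 2 the BR counts were 1298 and 1245. With 2 arrays per group, no difference under 0.47 on the log2 scale was called under BR.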
